A study of Mus musculus with 74 samples.

Results

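In mouse quadriceps, the deposited H3K27ac table holds 10925 windows of 1000 bp, each centred on a BCL6 binding peak, and 443 of them lie in the body or at the end of a transcript. They were chosen as windows annotated to an exon, a 5' UTR, a 3' UTR or a transcription termination site (TTS) whose distance to the nearest transcription start was above 1000 bp. The set holds 173 exon windows, 138 TTS windows, 125 3' UTR windows and 7 5' UTR windows. BCL6 is a zinc-finger transcription factor that binds DNA and recruits corepressor complexes, some of which carry histone deacetylases. Acetylation of histone H3 at lysine 27 (H3K27ac) marks active promoters and enhancers and is removed by such deacetylases.

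H3K27ac was measured by ChIP-seq in quadriceps of 3 knockout mice (AEC-Esr Cre (+):Bcl6 fl/fl; labelled mKO_1896, mKO_1900 and mKO_1907) and 3 Cre-negative mice (Bcl6 fl/fl; labelled Ctr_1898, Ctr_1899 and Ctr_1906). All were C57BL/6 and received tamoxifen (TMX), and the controls carried the floxed alleles but no Cre, so tamoxifen was shared and Cre activity was not. The BCL6 peaks came from 1 ChIP library of untreated wild-type C57BL/6 quadriceps, so peak scores have no replicate. Further H3K27ac series, labelled acute and chronic, each compared 3 other knockout with 3 other Cre-negative mice of the same genotypes and treatment. The sample labels give no duration, but the column headers carry a mark that reads as weeks, shorter in the acute than in the chronic series. Poly(A) RNA was available for 5 knockout and 4 Cre-negative mice that include the 6 animals of the windows. A separate poly(A) RNA set, called RiboTag mRNA here, came from 4 knockout (AEC-Esr Cre (+):Bcl6 fl/fl; RiboTag (+)) and 4 control mice (AEC-Esr Cre (+); RiboTag (+)), so that both groups carried Cre and received tamoxifen. RiboTag is an HA tag on ribosomes, and the labels list an anti-HA antibody without saying whether this RNA was pulled down with it. Nascent RNA was measured in 10 wild-type samples, 5 treated with the BCL6 inhibitor FX1 and 5 with DMSO. The labels do not name the promoter that drives the Cre. The question asked here is whether acetylation at BCL6 sites inside and at the end of genes changed after Bcl6 loss, and whether the RNA of those genes changed with it.

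The 6 H3K27ac libraries of the windows held 15007526 to 22722409 tags. The nearest gene could not be assumed to be the gene in which a window lies: in 260 of 443 windows the nearest start belonged to the annotated gene, and in 183 it belonged to another. The targeted gene was checked first. Whole-gene Bcl6 in poly(A) RNA was 10.21, 10.41, 10.36 and 10.38 in Cre-negative mice and 10.09, 10.22, 9.99, 10.25 and 9.98 in knockouts on the authors' log2 scale. The groups overlapped, and the difference of -0.23 passed limma (adjusted p = 0.0129) but not without the filter, with quantile normalization or in the H3K27ac animals alone. In RiboTag mRNA Bcl6 had 134.0, 304.1, 126.8 and 239.7 CPM (counts scaled to the same total in each library) in controls and 278.5, 248.6, 188.4 and 221.8 CPM in knockouts, and the difference did not pass (edgeR adjusted p = 0.840). Reads of the floxed exons are not given separately in these tables. Muscle fibre transcripts dominated the tissue as labelled: their summed level was 16.01 to 16.08 in Cre-negative and 15.88 to 15.99 in knockout libraries on the log2 scale, and fibroblast and tendon transcripts came next at 12.7 to 12.9 and 12.6 to 12.7, with lymphocyte transcripts lowest at 6.82 to 6.98 and 6.83 to 6.91. In poly(A) RNA, 3 of 8 fibre markers were lowered (list median -0.09), and the medians of the other marker lists lay between -0.04 and 0.04. In RiboTag mRNA the list medians were -0.23 for muscle fibre, -0.16 for satellite cells, 0.26 for erythroid cells and -0.74 for lymphocytes (1 of 2 tested markers lowered), and the others lay between -0.09 and 0.17. In whole tissue, fewer cells of a type and less RNA per cell cannot be told apart, and the part of cell composition in the results below was not tested.

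The windows belonged to 425 genes on 20 chromosomes, and 13 genes held more than 1 window. Titin (Ttn), the giant spring of the sarcomere, held 7, and each of the other 12 held 2. Of the 173 exon windows, 127 lay in an inner exon, 32 in the last exon of several, 5 in the first and 9 in a single-exon gene, and the median transcript had 13 exons. Of the 125 3' UTR windows, 117 lay in the last exon of a transcript with several exons and 8 in single-exon genes. Only 1 of the 443 windows contained a RefSeq transcript start (0.226%), beside 66.4% of promoter windows and 10.6% of all windows. Downstream of the nearest start lay 331 windows and upstream 112, at a median distance of 10305 bp and at most 387264 bp. Just inside the distance limit, the Uts2r exon window (1006 bp) went from a mean signal of 113.9 to 153.7. Just outside it, the Exoc8 exon window (969 bp) had 82.6 and 81.9 and the 2210416O15Rik TTS window (942 bp) had 192.1 and 198.6.

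The peak score, a value given by the authors with no named scale, had a median of 23.3 among these windows, as among all 10925, and ran from 12.3 to 416.5. The highest score belonged to exon 3 of Nfkbia, which encodes the inhibitor of NF-kappa-B signalling (chr12:55490763-55491763, mm10). The 3' UTR of the deubiquitinase gene Usp15 followed with 354 (chr10:123107550-123108550), then exon 2 of Sesn1 with 254.8 (chr10:41893604-41894604), exon 1 of Skida1 with 221.7 (chr2:18046352-18047352) and the TTS of 1700095J03Rik near the kinase gene Stk33 with 180.1 (chr7:109444684-109445684). A high score did not go with one acetylation level. In Cre-negative muscle the Nfkbia window had a mean H3K27ac signal of 199.6 ± 44.8 (SD, n = 3), the Skida1 window 28.3 ± 3.83 (SD, n = 3) and the Usp15 window 7.89 ± 3.78 (SD, n = 3), and the 1700095J03Rik window was close to empty at 1.21 ± 0.229 (SD, n = 3).

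H3K27ac signal is given as tags in the window per 10000000 tags of the library. Its median over the 443 windows was 24.0, 24.0 and 21.5 in the 3 Cre-negative libraries and 24.8, 25.5 and 25.01 in the 3 knockout libraries, so each knockout library stood above each control library. Intron windows had control medians of 26.0, 24.9 and 22.9, and promoter windows stood far higher at 112.9, 120.8 and 115.7. Exon and 3' UTR windows had control-group medians of 19.4 and 19.1, TTS windows 27.7 and the 7 5' UTR windows 28.1. The spread within the set was wide, with quartiles of the control means at 6.51 and 67.0 and a highest value of 365. In 312 of 443 windows the signal was at least 5 in every library.

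**Figure D1:**
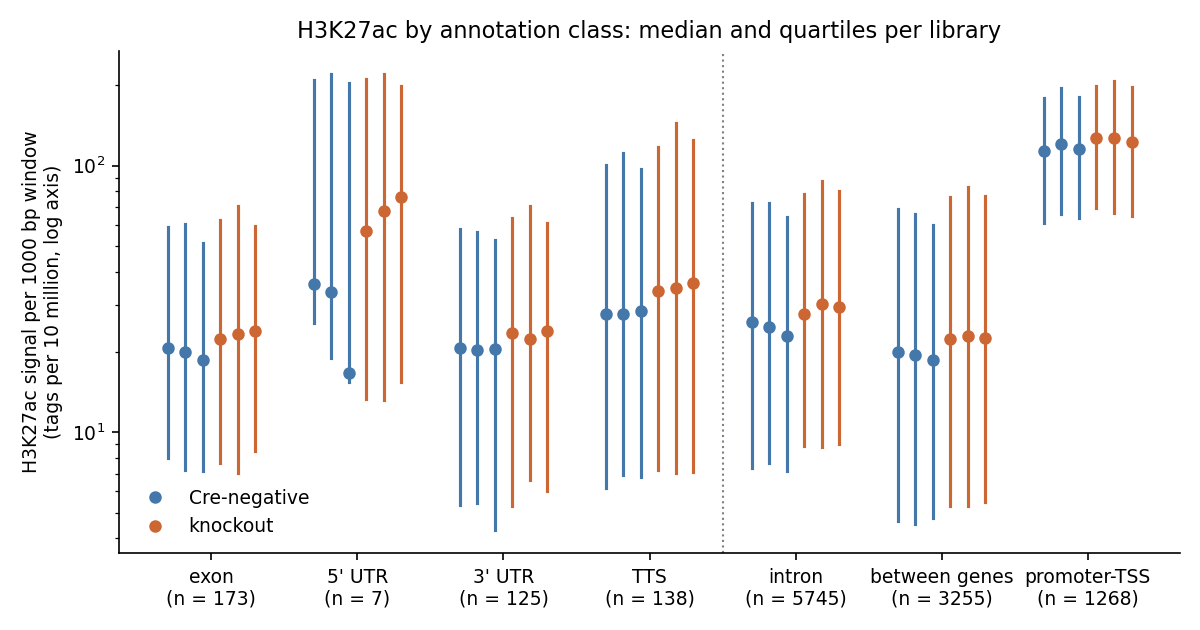
Signal of H3K27ac per 1000 bp window (tags scaled to 10000000 per library, log axis) by annotation class, with the 4 classes studied here left of the dotted line; each line is 1 library, from the lower to the upper quartile, with the median as a dot, in blue for Cre-negative and orange for knockout. Exon, 3' UTR and TTS windows overlap introns and the space between genes, and promoters stand above them.

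The 6 windows with the highest control levels were all at a 3' UTR or a TTS. The TTS window of Adamtsl4, an extracellular matrix gene (chr3:95675380-95676380), had 409, 346 and 339 in controls and 337, 456 and 411 in knockouts. The 3' UTR window of the anti-apoptotic gene Mcl1 lies close by on the same chromosome (chr3:95661808-95662808) and had 340, 323 and 282 against 361, 386 and 369. In the Mcl1 window the groups did not overlap, but the difference did not pass (log2 change 0.24, limma adjusted p = 0.0698; it passed without Ctr_1898), and in the Adamtsl4 window they overlapped. The 3' UTR of Fem1a, a ubiquitin ligase adaptor, had a control mean of 314.5 ± 45.1 (SD, n = 3), and the 3' UTR of Synpo, which encodes an actin-associated protein, had 297.7 ± 8.99 (SD, n = 3). The Synpo window lies at -3072 bp from the start of Myoz3, a Z-disc protein gene. The TTS window of the nuclear pore gene Nup133 lies at -1744 bp from the start of Acta1, the skeletal muscle actin gene, and had 295.6 ± 31.9 (SD, n = 3). The TTS window of Mknk2, a kinase of the cap-binding protein eIF4E, had 289.0 ± 27.02 (SD, n = 3). None of these 6 windows passed the test. Mknk2 came nearest, with 301, 308 and 258 against 338, 392 and 332 (log2 change 0.29, adjusted p = 0.0509), and passed with a pseudocount of 5 or without Ctr_1898.

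Knockout muscle was compared with Cre-negative muscle by limma on log2 of the signal plus 1, fitted over all 9080 windows with a mean signal of at least 5. Of the 443 windows, 362 entered the fit, and 12 of these did so only through their knockout signal and 8 only through their control signal. Acetylation was raised in 72 windows (19.9% of those tested, beside 16.7% of all windows) and lowered in 8 (2.21%, beside 1.44%). Of the 72, 5 were among the windows tested only through their knockout signal, and of the 8, 1 was tested only through its control signal. These calls were not taken out of the counts and splits below, which rest partly on them. The same counts without them were not made. The median log2 change was 0.13, beside 0.14 over all windows tested, so the whole table was shifted upward and these windows followed it. All windows together held 6.39% to 6.97% of the tags of a control library and 7.45% to 8.13% of a knockout library. With quantile normalization, which removes that shift, the median of all windows went from 0.14 to -0.07, and 46 of these windows were raised and 25 lowered. With edgeR on the recovered tags 50 were raised and 17 lowered. Shares over all windows under these 2 fits are not given, so these counts cannot be set against 16.7% and 1.44%. The count of raised windows was 47 without mKO_1907.

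**Figure D2:**
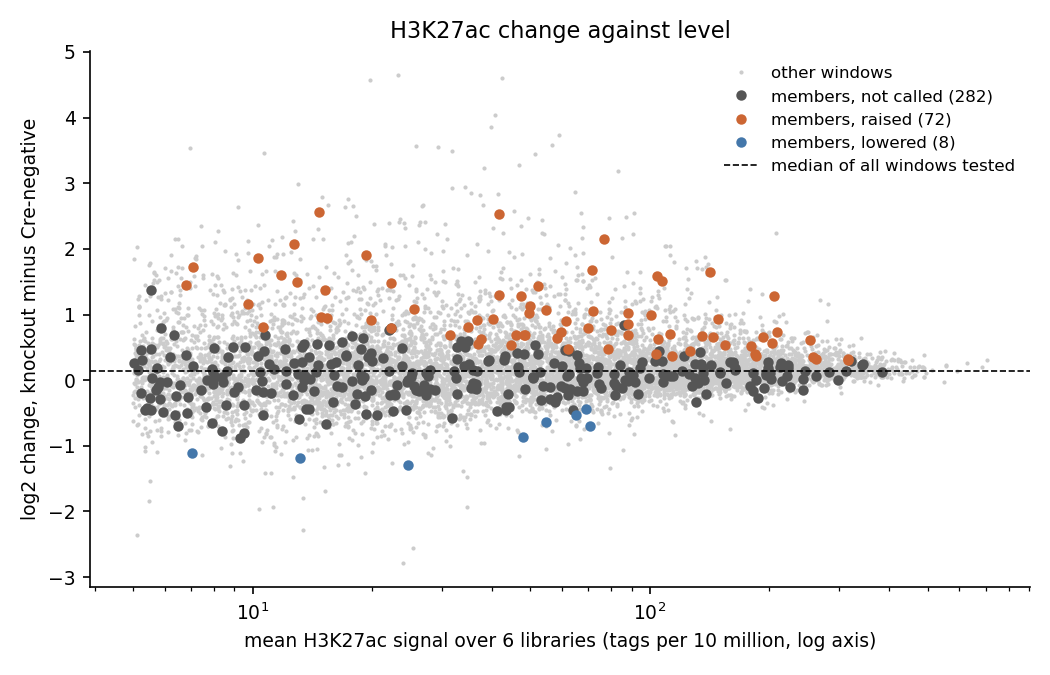
Log2 change of H3K27ac (knockout minus Cre-negative) against mean signal over the 6 libraries (log axis) for all 9080 windows tested; small grey points are other windows, and large points are the 362 exonic and transcript-end windows, 72 raised in orange and 8 lowered in blue. The dashed line is the median of all windows, 0.14, and most calls lie above it.

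The classes differed little in these shares. Raised were 28 of 148 exon windows, 23 of 109 TTS windows, 19 of 98 3' UTR windows and 2 of 7 5' UTR windows, and lowered were 2, 2, 4 and 0 (limma; 0 of the 5' UTR windows were lower at an unadjusted p below 0.05 either). Introns had 17.6% raised, the space between genes 19.1% and promoters 8.26%. The groups did not overlap in the upward direction in 103 of the 362 windows and in the downward direction in 23, beside 28.4% and 5.91% of all windows. Windows with a higher BCL6 score were raised more often: 41 of 125 above a score of 30.6 (32.8%), 16 of 106 from 20.8 to 30.6 (15.1%) and 15 of 131 at 19.6 or below (11.5%). The same split over all windows gave 26.5%, 12.6% and 9.47%. Among the windows above 30.6 none was lowered, with 1 below an unadjusted p of 0.05. The control signal also went with the score, with medians of 29.8, 19.4 and 15.1, and its part in the split was not tested. By distance, 30 of 97 windows at 20000 to 100000 bp from a start were raised (median log2 change 0.36), 23 of 129 at 5000 to 20000 bp (0.13) and 18 of 124 within 5000 bp (0.09). Above 100000 bp 1 of 12 was raised (0.05), so the shares did not follow distance throughout, and the same shares over all windows were not computed.

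Of the 8 named raised windows, those of Bche, Otoa and Sorl1 had a control mean under 5 and entered the fit only through their knockout signal, so their values are given as a description, with no test. The 3' UTR window of Bche, which encodes butyrylcholinesterase (chr3:73636766-73637766), had 2.67, 4.53 and 3.34 in controls and 34.2, 19.4 and 24.0 in knockouts. These are 4, 10 and 7 tags against 58, 44 and 48. The TTS window of Pafah1b2, a subunit of platelet-activating factor acetylhydrolase (chr9:45964292-45965292), rose from 12.7, 12.7 and 8.58 to 52.5, 98.6 and 64.5 (2.54, SE 0.249, adjusted p = 1e-05). The groups were apart in both windows. The Pafah1b2 window lies at -9543 bp from the start of Sidt2, which encodes a lysosomal membrane protein.

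The TTS window of Znhit6, a gene for assembly of small nucleolar ribonucleoproteins (chr3:145605335-145606335), had close control values of 27.3, 28.1 and 26.2 and knockout values of 96.2, 154.9 and 127.03. It rose by 2.15 (SE 0.179, adjusted p = 2.23e-06). Exon 13 of the inner-ear gene Otoa (chr7:121121544-121122544) went from 6.00, 2.72 and 4.29 to 16.5, 19.8 and 27.01. The Usp15 3' UTR window, the 2nd highest BCL6 score here, went from 11.99, 4.53 and 7.15 to 27.7, 33.0 and 31.0 (1.91, SE 0.298, adjusted p = 0.00045). In all 3 windows every knockout library was above every control library.

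The 3' UTR window of Sorl1, a sorting receptor gene (chr9:41967370-41968370), had 4, 5.43 and 2.38 in controls and 12.4, 16.3 and 21.5 in knockouts. The 3' UTR window of Sppl2a, an intramembrane protease gene (chr2:126891384-126892384), rose from 40.0, 36.7 and 25.3 to 98.6, 106.9 and 121.0 (1.67, SE 0.182, adjusted p = 2.57e-05). The groups were apart in both windows, and the Sppl2a change was larger than the spread within its groups.

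Sesn1 encodes sestrin 1, a leucine-responsive inhibitor of the growth kinase complex mTORC1, and held a pair of raised windows. Exon 2 (chr10:41893604-41894604) had 108, 60.2 and 44.4 in controls and 166, 250 and 224 in knockouts (1.65, SE 0.246, adjusted p = 0.000316). Exon 6, named after its values were seen (chr10:41902084-41903084) had 52.6, 57.9 and 55.8 against 143, 171 and 164 (1.5, adjusted p = 2.88e-06). Ctr_1898 stood above the other controls in exon 2 but not in exon 6, and the groups were apart in both. The BCL6 scores were 254.8 and 14.7, so the weakly scored window rose as well.

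The window with the highest score, exon 3 of Nfkbia, had 251, 177 and 170 in controls and 250.2, 392 and 274 in knockouts (0.61, SE 0.165, adjusted p = 0.0196). Its groups overlapped, and the call was lost without Ctr_1899, Ctr_1906 or mKO_1900. The Skida1 window had 31.3, 24.0 and 29.6 against 44.9, 35.2 and 41.0, with the groups apart, and did not pass (0.50, adjusted p = 0.0868). Of the 5' UTR windows, that of Blcap went from a mean of 28.1 ± 9.84 to 66.8 ± 9.72 (SD, n = 3 each; 1.28, adjusted p = 0.00222), and that of the autophagosome transport gene Fyco1 from 281.1 ± 32.7 to 349.2 ± 13.2 (SD, n = 3 each; 0.32, adjusted p = 0.0302).

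**Figure D3:**
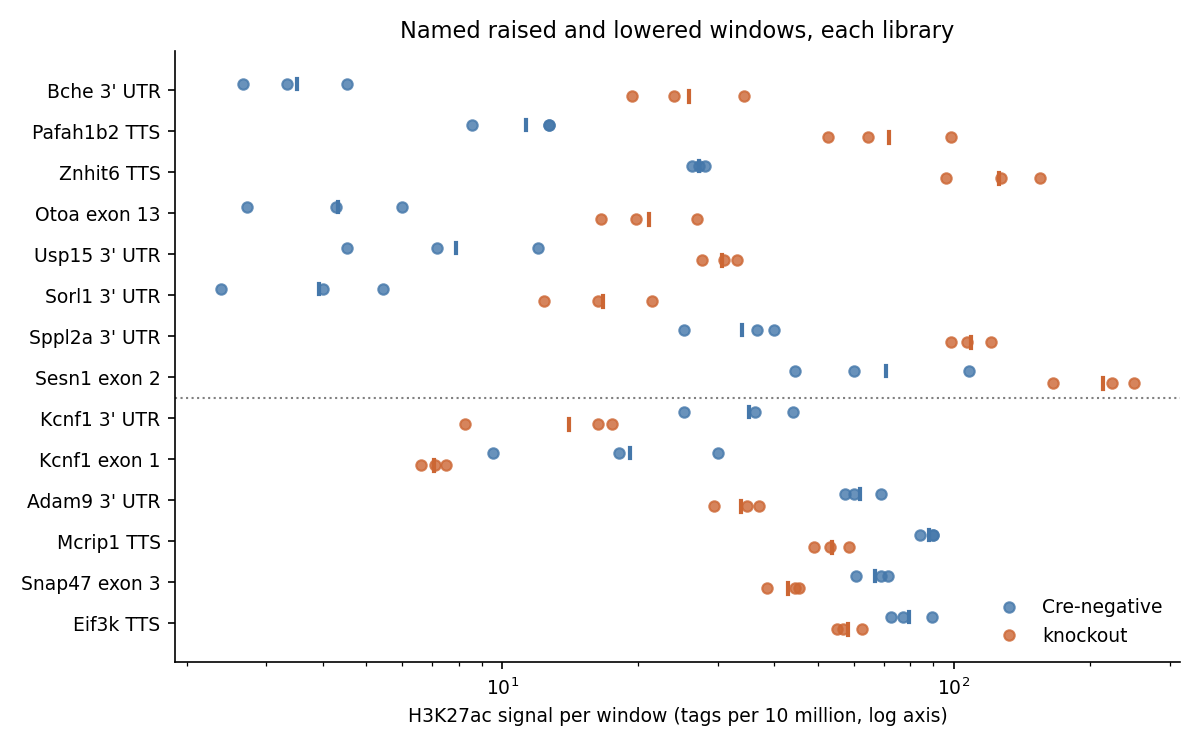
H3K27ac signal of each library (tags scaled to 10000000 per library, log axis) in the 8 raised windows above the dotted line and 6 lowered windows below it, with Cre-negative libraries in blue, knockout libraries in orange and group means as ticks. The windows were picked for groups that do not overlap, so their separation is no result. Those of Bche, Otoa and Sorl1 entered the fit only through their knockout signal and are shown with no test.

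The largest change among the lowered windows was at Kcnf1. Kcnf1, which encodes a modifier subunit of voltage-gated potassium channels, is a single-exon gene with a pair of lowered windows. Its 3' UTR window (chr12:17173914-17174914) had 44.0, 36.2 and 25.3 in controls and 8.26, 16.3 and 17.5 in knockouts, a fall of 1.30 on the log2 scale (SE 0.289, adjusted p = 0.00616). Its exon window (chr12:17175249-17176249) had 30.0, 18.1 and 9.54 against 7.08, 6.60 and 7.5 (-1.19, SE 0.348, adjusted p = 0.0278), and this call was lost without Ctr_1898, Ctr_1899, mKO_1900 or mKO_1907. The control values spread widely, but the groups did not overlap in either window.

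Adam9, a membrane metalloprotease gene, had 57.3, 68.8 and 60.1 in its 3' UTR window (chr8:24950411-24951411) in controls and 34.8, 29.5 and 37.0 in knockouts (-0.86, SE 0.170, adjusted p = 0.00279). The TTS window of Mcrip1 (chr11:120542048-120543048) had 90.0, 89.6 and 83.9 against 49.0, 53.3 and 58.5 (-0.71, SE 0.143, adjusted p = 0.00332). Exon 3 of Snap47, a SNARE protein gene (chr11:59427923-59428923), had 71.3, 68.8 and 60.6 against 45.4, 44.5 and 38.5 (-0.63, SE 0.158, adjusted p = 0.0123). These 3 windows had tight groups that were apart. The TTS of the translation initiation factor gene Eif3k (chr7:28969890-28970890) went from 79.7 ± 8.53 to 58.1 ± 3.94 (SD, n = 3 each; adjusted p = 0.0495). The Eif3k call was lost in several fits that left out 1 library, as was that of Snap47 without Ctr_1899 or mKO_1907. The Mdga1 3' UTR window had means of 10.003 and 4.09, was tested only through its control signal and is given with no test. Without Ctr_1899, 3 windows were lowered, and without mKO_1896, mKO_1900 or mKO_1907, 5 were in each case.

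Of 21 genes looked up by name, among them Igf1, Socs2, Cish, Mstn, Fbxo32 and Trim63, only Bcl6 and Irs1 had a window in the set. Bcl6 itself held a TTS window (chr16:23963625-23964625, score 38.0) with 157, 167 and 147 in controls and 122, 179 and 161 in knockouts, so the groups overlapped (log2 change -0.05, adjusted p = 0.860). Irs1, the adaptor between the insulin and IGF1 receptors and PI3-kinase, held an exon 1 window (chr1:82289756-82290756) with 182, 213 and 179 against 208, 196 and 198 (0.08, adjusted p = 0.681).

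The Ttn windows had low signal and none passed. They lay between exon 30 and exon 275 of transcripts with 192 or 313 exons. The highest control means were 20.5 ± 3.67 in exon 45, 19.2 ± 7.59 in exon 150 and 13.9 ± 0.924 in exon 275, and the other 4 lay between 6.37 and 9.64 (SD, n = 3). The log2 changes ran from -0.50 to 0.05 with adjusted p from 0.327 to 0.985, and the direction in exons 30, 143, 150 and 275 depended on the scaling or on 1 library. Tmem88b held a TTS window (195.2 ± 7.40 to 233.0 ± 7.84, SD, n = 3 each; adjusted p = 0.0745) and a 3' UTR window (269.9 ± 21.7 to 293.4 ± 18.98, adjusted p = 0.426), and the groups overlapped only in the latter.

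By pathway, the set held few windows per list. Sarcomere and Z-disc genes had 15 windows in 8 genes, of which 14 were tested and 1 was raised, in an exon of the M-band gene Myom1 (27.3 ± 2.29 to 53.3 ± 7.67, SD, n = 3 each; adjusted p = 0.00243). Their median log2 change was 0.05, below the 0.14 of all windows. The low Ttn windows made up more of this list than those of any other gene, so the median leans on Ttn. Of 4 windows at mTORC1 and translation control genes, the 2 Sesn1 windows were raised. The 5' UTR window of the stress factor Atf4 (233.1 ± 5.32 to 216.7 ± 15.8, SD, n = 3 each; adjusted p = 0.495) and the 3' UTR window of Ddit4l (11.5 ± 1.86 to 13.96 ± 1.87, adjusted p = 0.536) did not pass. Glycolysis genes had 3, at the ends of Gapdh, Ldha and Pgam2, and the 2 tested did not pass (Gapdh adjusted p = 0.777, Pgam2 adjusted p = 0.754).

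The acute and chronic series, with other animals, were counted in the same merged H3K27ac regions, and 178 of the 443 windows overlapped such a region (40.2%, beside 46.3% of all windows). None of the 178 regions passed limma in the acute series in either direction, where 0.0937% of 71480 regions were raised and 0.0042% lowered. At an unadjusted p below 0.05, 26 were higher and 8 lower, beside 5596 of the 71480 regions in either direction. In the chronic series 3 of 175 were raised, beside 0.166% of 67918 regions, and none was lowered, beside 0.0118%, with 31 higher and 2 lower at an unadjusted p below 0.05, beside 4654 of all regions tested in either direction. Among the 48 regions of raised windows, 42 had a log2 change above 0 in the acute series (median 0.53) and 42 of 47 in the chronic series (median 0.73). The regions of windows not called had 71 of 123 and 72 of 121 above 0. All regions had 36215 of 71480 and 36688 of 67918 above 0, with medians of 0.01 and 0.04. The log2 changes of window and region had a Pearson correlation of 0.61 over 178 windows in the acute series and 0.59 over 175 in the chronic series, given as a description. Points within a series share their libraries.

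The 3 chronic regions that passed, named after their values were seen, were those of Znhit6, exon 7 of Mmd and exon 6 of Sesn1. The Sesn1 exon 6 region had 8.21, 17.96 and 10.4 in chronic controls and 48.0, 64.0 and 55.0 in chronic knockouts (2.16, SE 0.320, adjusted p = 0.005). In the acute series it had 23.8, 33.0 and 38.9 against 86.7, 52.5 and 55.4 (0.99, adjusted p = 0.0934). The Znhit6 region had 12.7, 7.70 and 16.1 against 52.4, 48.5 and 38.6 in the chronic series (1.89, adjusted p = 0.0191). Its acute values were 7.64, 19.1 and 23.8 against 38.6, 33.7 and 42.8 (1.27, adjusted p = 0.129). The Mmd region went from 20.9, 15.4 and 16.5 to 78.6, 58.5 and 73.4 in the chronic series (1.94, adjusted p = 0.00404). In each of the 3 regions the groups were apart in both series. None of the regions passed without imKO_1794, imKO_1802 or imKO_1803, and 10 passed without Ctr_1801.

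**Figure D4:**
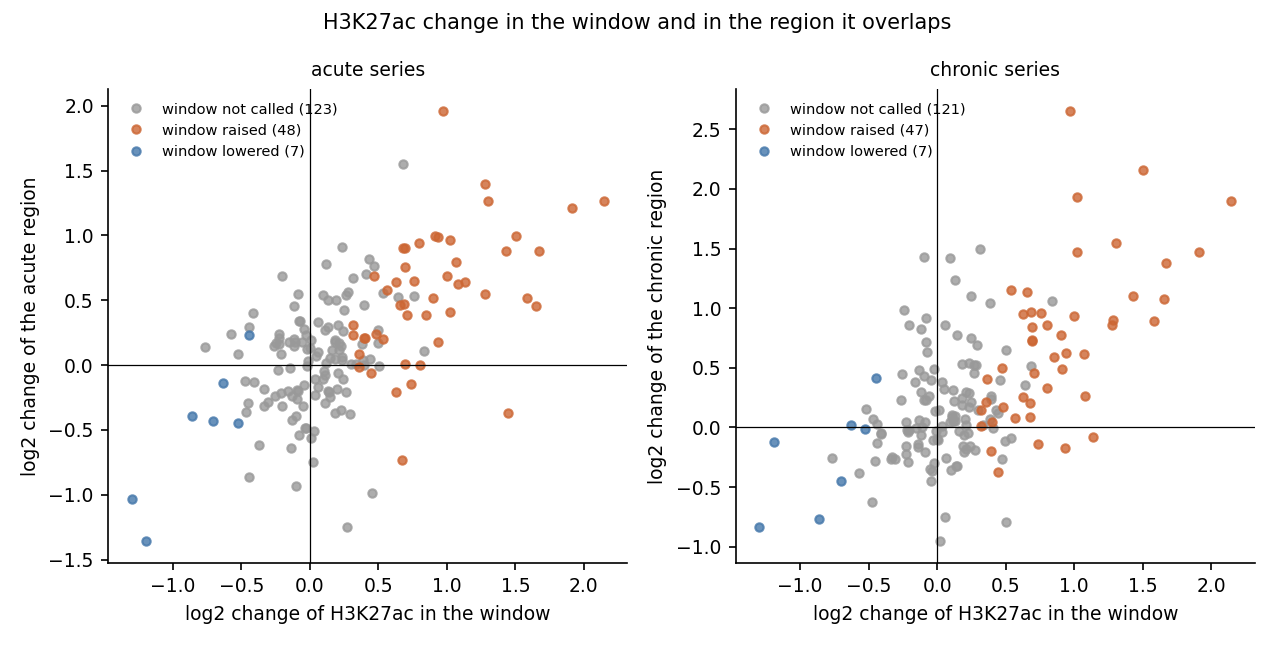
Log2 change of the overlapping region in the acute (left) and chronic series (right) against the log2 change of the window, 1 point per window, in orange where the window was raised, blue where lowered and grey where not called. Of the raised windows, 42 of 48 and 42 of 47 lie above 0 in the acute and chronic series, beside 71 of 123 and 72 of 121 of those not called.

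The Kcnf1 3' UTR region had 31.4, 33.6 and 31.0 in acute controls and 11.6, 22.7 and 13 in acute knockouts, and the groups were apart, but the change did not pass (-1.03, adjusted p = 0.261). In the chronic series its groups overlapped (-0.83, adjusted p = 0.693). The Bcl6 TTS region had higher values in every knockout than in every control in both series, with changes of 0.28 and 0.40 that did not pass (adjusted p = 0.794 and 0.784).

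The RNA of the genes was followed next, first in poly(A) RNA. The values are the authors' log2 values, from a transform that is not named, so differences are on that scale. Of 394 genes tested, 37 were raised (9.39%, beside 4.94% of all genes) and 74 lowered (18.8%, beside 7.55%). Highly expressed genes were common in the set: 224 windows lay in genes from the upper tertile of RNA levels, 115 from the middle and 73 from the lower one, and the part of that level in the share of calls was not tested. The split followed the windows. Among the 68 genes with a raised window, 23 were raised and 6 lowered, whereas among the 250 with a tested window that was not called, 13 were raised and 52 lowered. The median differences of these sets lay close together, at 0.03 and -0.01. Bche, whose window entered the fit only through its knockout signal, is among the 23. The 7 genes with a lowered window had 4 lowered. Mdga1, whose window entered the fit only through its control signal, is among the 4. Since 6 of the animals gave both the RNA and the H3K27ac libraries, these values are not independent of the windows.

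RiboTag mRNA came from other animals. There, 13 of 370 genes were raised (3.51%, beside 1.95% of all genes) and 20 lowered (5.41%, beside 2.25%). Among 64 genes with a raised window 9 were raised and 1 was lowered, with a median log2 change of 0.17. The lowered gene is Sorl1, whose window entered the fit only through its knockout signal. Among 237 genes with a window tested and not called, 4 were raised and 12 lowered, with a median of -0.05. Of the 7 genes with a lowered window, 1 was lowered and 0 were raised. Counts of these sets were not tested against each other. Leaving out RNA_11722 brought the 13 raised genes to 7.

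**Figure D5:**
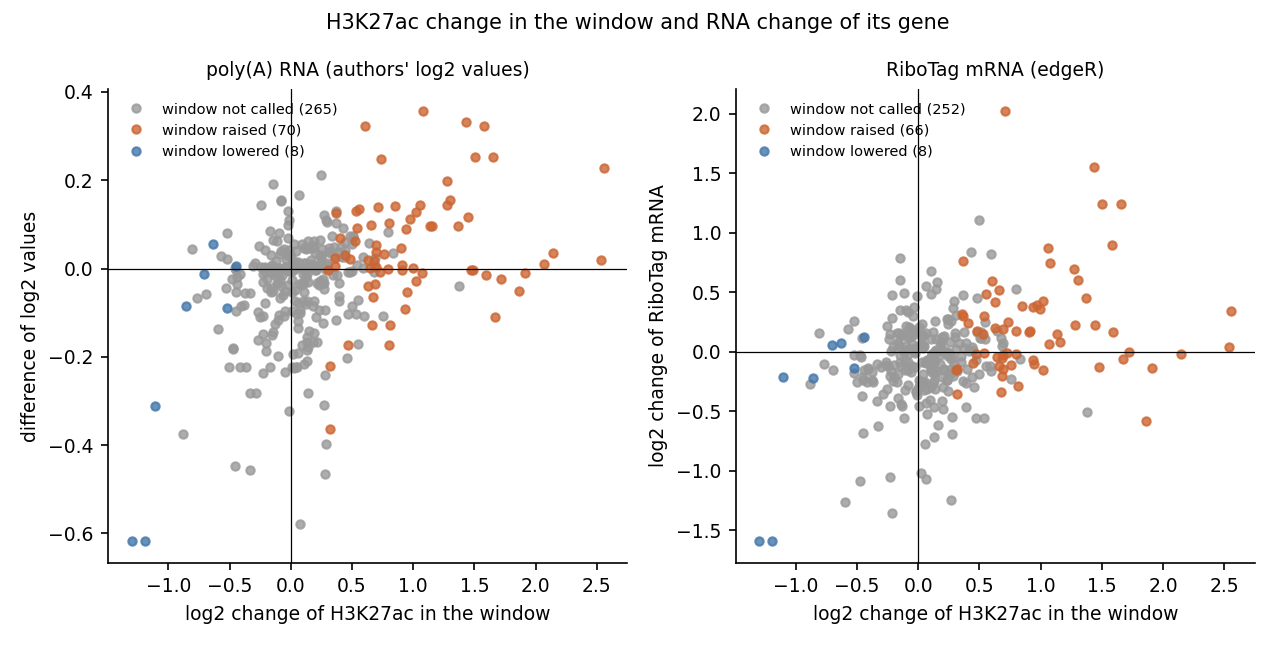
Change of the RNA of a window's gene against the log2 change of H3K27ac in the window, for poly(A) RNA (left, difference of the authors' log2 values) and RiboTag mRNA (right, edgeR log2 change), coloured by the call of the window. The genes of raised windows have a median change of 0.17 in RiboTag mRNA, and those of windows not called -0.05. In poly(A) RNA these medians lie close together, at 0.03 and -0.01.

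Sesn1, the gene of a pair of raised windows, also rose in RNA. In RiboTag mRNA controls had 68.8, 61.1, 69.6 and 70.3 CPM and knockouts 170.6, 167.3, 156.3 and 174.6 CPM, so the groups were far apart (log2 change 1.24, SE 0.0823, adjusted p = 9.49e-06). In poly(A) RNA its log2 values were 9.37, 9.60, 9.56 and 9.47 against 9.75, 9.67, 9.77, 9.79 and 9.79 (0.25, adjusted p = 0.0011). Kcnf1 moved in the other direction, as its windows did. Its poly(A) values were 6.87, 6.70, 6.88 and 7.12 in controls and 6.20, 6.28, 6.27, 6.34 and 6.28 in knockouts (-0.62, adjusted p = 1.33e-05). Its RiboTag values were 7.74, 13.6, 27.1 and 10.2 CPM against 3.90, 5.41, 3.65 and 7.20 CPM (-1.59, SE 0.358, adjusted p = 0.0269), and this call was lost without RNA_11735, RNA_11688 or RNA_11721. Mcrip1, Snap47 and Eif3k, with lowered windows too, did not pass in poly(A) RNA (limma adjusted p = 0.870, 0.184 and 0.933). They did not pass in RiboTag mRNA either (edgeR adjusted p = 0.820, 0.790 and 0.623). Adam9 fell by 0.08 in poly(A) RNA (limma adjusted p = 0.0231) and did not pass in RiboTag mRNA (edgeR adjusted p = 0.337). Adam9 rose by 0.29 in nascent RNA after FX1 (limma adjusted p = 0.0372). Its poly(A) and nascent calls were lost in 4 and 9 alternative fits.

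For the windows of Znhit6, Usp15 and Pafah1b2, which also had large rises, the gene's RNA did not follow in the knockouts. Znhit6 poly(A) RNA was 7.79 ± 0.046 in controls and 7.83 ± 0.038 in knockouts (SD, n = 4 and 5; adjusted p = 0.502), and its RiboTag mRNA was 24.0 ± 2.77 and 24.9 ± 2.47 CPM (SD, n = 4 each; adjusted p = 0.963). Usp15 (adjusted p = 0.868) and Pafah1b2 (adjusted p = 0.733) did not pass in poly(A) RNA either. At the Pafah1b2 window the gene of the nearest start did: Sidt2 had 184.2, 189.6, 197.6 and 184.3 CPM in RiboTag controls and 285.5, 289.4, 275.0 and 283.0 CPM in knockouts (0.52, SE 0.0731, adjusted p = 0.0019). Sidt2 poly(A) RNA rose by 0.21 (adjusted p = 5.46e-05). At the Usp15 window the gene of the nearest start, Mon2, went the other way. Mon2 fell by 0.07 in poly(A) RNA (limma adjusted p = 0.0438) and did not pass in RiboTag mRNA (edgeR adjusted p = 0.753). Sorl1 RiboTag mRNA was lowered, with 152.5, 164.3, 159.2 and 144.5 CPM in controls and 93.3, 102.9, 111.9 and 126.2 CPM in knockouts (-0.58, adjusted p = 0.0037). Its poly(A) RNA did not pass (-0.05, limma adjusted p = 0.560). Bche rose by 0.23 in poly(A) RNA (adjusted p = 0.00227), while Sppl2a fell by 0.11 (adjusted p = 0.00538), a call lost with quantile normalization. Neither passed in RiboTag mRNA (edgeR adjusted p = 0.536 for Bche and 0.862 for Sppl2a).

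A further 8 genes with a raised window were raised in RiboTag mRNA, and they are named after their values were seen. The largest change was that of Cdhr3, a cadherin family gene, from 2.08, 3.30, 1.28 and 4.15 to 10.002, 11.7, 10.3 and 13.3 CPM (2.03, SE 0.310, adjusted p = 0.00295). Its exon 7 window went from 84.8 to 140.1 (adjusted p = 0.00747). Ppp1r3d, which encodes a glycogen-targeting subunit of protein phosphatase 1, went from 12.4, 5.63, 7.17 and 5.85 to 25.6, 26.02, 18.03 and 26.1 CPM (1.56, adjusted p = 0.00228), and its 3' UTR window from 28.1 to 76.6. Pak1, a kinase of the actin cytoskeleton, went from 83.7, 66.8, 72.1 and 58.2 to 152.0, 122.4, 147.4 and 124.3 CPM (0.90, adjusted p = 0.000671), and its 3' UTR window from 51.8 to 157.0. The groups were apart in each of these 3 genes. The other 5 were Hoxa4 (0.87), Traf3ip3 (0.74), Ccs (0.61), Chac1 (0.52) and Slc12a7 (0.45), with adjusted p from 0.00868 to 0.0434. The calls of Hoxa4, Traf3ip3, Chac1 and Slc12a7 were each lost in several fits that left out 1 library. Ccs encodes the copper chaperone of superoxide dismutase. In poly(A) RNA Chac1 and Slc12a7 did not pass (limma adjusted p = 0.574 and 0.112), and the others of the 8 were raised.

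Some genes whose windows did not pass had RNA that did. Irs1 RiboTag mRNA fell from 263.2, 237.9, 301.7 and 218.9 to 199.0, 191.7, 173.7 and 180.5 CPM (-0.52, adjusted p = 0.00726), and its poly(A) RNA by 0.58 (adjusted p = 9.64e-05). Adamtsl4, the gene of the window with the highest control signal, fell from 87.2, 107.4, 121.6 and 119.1 to 58.3, 70.4, 73.5 and 75.5 CPM (-0.72, adjusted p = 0.00726). Myoz3, whose start is nearest to the Synpo window, fell from 526.9 ± 16.1 to 387.2 ± 17.2 CPM (SD, n = 4 each; adjusted p = 0.0062). The log2 changes of their windows were 0.08 (SE 0.103) for Irs1, 0.13 (SE 0.109) for Adamtsl4 and 0.13 (SE 0.0818) for the 3' UTR of Synpo, and each had the other sign with quantile normalization. Mknk2 went the same way as its window (log2 change 0.29, not called). It rose by 0.11 in poly(A) RNA (limma adjusted p = 0.0261), a call lost in 5 alternative fits. Its RiboTag mRNA did not pass (edgeR adjusted p = 0.0662).

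In nascent RNA of wild-type muscle after FX1, 62 of 405 genes were raised (15.3%, beside 8.13% of all genes) and 57 lowered (14.1%, beside 7.99%). The lowered count was 30 without DMSO library 3 and 35 without DMSO library 5. Among the 69 genes with a window raised in the knockout, 11 were raised and 15 lowered, and among the 256 with a window tested and not called, 38 and 35. Znhit6 rose from 8.62, 8.40, 8.39, 8.54 and 8.42 with DMSO to 9.21, 9.17, 8.93, 8.88 and 8.94 with FX1 on the authors' log2 scale (0.55, adjusted p = 0.00442), with the groups apart. Sesn1 had 11.40, 11.19, 11.47, 11.14 and 11.35 with DMSO and 11.61, 12.06, 12.37, 11.58 and 11.59 with FX1 (adjusted p = 0.0451). Its groups were apart, but the call was lost without any 1 of the 5 DMSO libraries and with the replicate block. Irs1 fell from 11.76 ± 0.31 to 10.57 ± 0.36 (SD, n = 5 each; -1.18, adjusted p = 0.00237). Cdhr3 rose by 1.68 (adjusted p = 0.0111) and Chac1, an enzyme of glutathione breakdown, fell by 1.5 (adjusted p = 0.000804), while both were raised in knockout RiboTag mRNA. Bcl6 nascent RNA did not pass (0.40, adjusted p = 0.264).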

How the data were processed

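Per the file headers, the authors counted H3K27ac tags with HOMER on mm10 and deposited a signal, tags scaled to 10000000 per library, for 1000 bp windows on BCL6 peaks and for regions merged from acute peaks, counted in the acute and chronic series. The deposited peak score has no named scale. Per the file headers, poly(A) and nascent RNA are the authors' log2 values from exon or gene-body tags, with an unnamed transform, and RiboTag mRNA values are deposited counts over gene bodies, capped in tags per position. Per the submitters' processing notes, Bowtie 1.2, STAR 2.4.0 and DESeq2 1.14.1 were used, with roles not given.

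Signal was tested as log2(signal + 1) with limma 3.58.1 (trended variance; mean signal at least 5), log2 values with limma after dropping the lowest 25% of genes, and counts with edgeR 4.0.16 (quasi-likelihood, TMM, minimum count 10), in R 4.3.3. DESeq2 1.42.0 was an alternative for counts, and edgeR on tags recovered from the signal (100% whole within 0.05 tags) for windows. Each test ran over the whole table with Benjamini-Hochberg adjustment, and calls are at adjusted p below 0.05. CPM values printed are counts scaled to the total of counts in genes. Fits were tested on simulated data. P-values measure the spread between these animals or, where separate animals are not stated, between libraries.

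A window's gene is that of the transcript in its annotation, matched by accession to RefSeq genes of GRCm38.p6 (443 of 443). Named windows are the 8 raised and up to 8 lowered with the largest change, groups apart and mean signal at least 10; the 6 with the highest control signal; the 5 with the highest score; those of 21 chosen genes; those of the 3 genes with most windows (ties by summed control signal); and those next to the distance limit on either side. Some that these rules pick are not reported here. Windows, lists and rules were chosen with earlier results of these data known. Of 74 samples, 45 entered; chronic RNA, ribosome footprints, oil-treated mice, inputs and wild-type H3K27ac did not.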

Additional observations from a re-analysis of the deposited data

Results flagged for a closer look

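Among 38 groups of libraries screened, those of the called RNA results of the named genes, 2 libraries stood far from the rest of their group by Dixon's test at 95%; chance flags about 1 group in 20. Library RNA_11734 of the controls had the lowest Sesn1 RiboTag mRNA, 61.1 CPM, below the other controls at 68.8 to 70.3 CPM and further from the knockouts. FX1 library 2 had the lowest Adamtsl4 nascent RNA, 8.32 on the authors' log2 scale.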

How the results depend on the processing

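Of the windows, 34 of the 72 raised and 3 of the 8 lowered were called in every alternative fit, including one with a stricter filter at a mean signal of 20. Quantile normalization gave 46 raised and 25 lowered windows, and edgeR on recovered tags 17 lowered; with 1 library left out, 47 to 71 were raised and 3 to 8 lowered. For these counts and those that follow, shares over all windows, regions or genes under the same fit are not given. They describe only the dependence on processing. Acute regions gave 2 raised with a pseudocount of 5, and 0 to 1 raised and 0 to 1 lowered with 1 library left out. Chronic regions gave 5 raised with a pseudocount of 5, 6 with quantile normalization, 1 with an overlap of at least 500 bp, and 0 to 10 raised and 0 to 1 lowered with 1 library left out. Poly(A) RNA gave 22 raised genes with no filter and 20 raised and 43 lowered in the animals with an H3K27ac library; with 1 library left out, 28 to 33 were raised and 63 to 76 lowered. RiboTag mRNA gave 24 raised with DESeq2 and 12 lowered with the gene of the nearest start, and with 1 library left out 7 to 16 raised and 14 to 28 lowered. Nascent RNA gave 39 raised and 30 lowered with a replicate block, and 43 to 78 raised and 30 to 73 lowered with 1 library left out; same-numbered DMSO and FX1 libraries had deviation correlations of -0.425 to 0.177, so the numbers were not taken as pairs. The cause of these shifts was not tested.

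Among the named windows and genes, only values that did not pass changed sign. With quantile normalization and with edgeR on recovered tags, the log2 changes were -0.050 and -0.020 for Adamtsl4, -0.063 and -0.028 for the Synpo 3' UTR, -0.11 and -0.064 for the Synpo TTS, -0.19 and -0.15 for Nup133, -0.11 and -0.093 for Irs1, and -0.065 and -0.047 for the Tmem88b 3' UTR. For Ttn they were -0.15 and -0.16 in exon 150, -0.20 and -0.14 in exon 275, and -0.17 and -0.065 in exon 143. With 1 library left out they ran from -0.078 to 0.12 for Nup133, -0.16 to 0.11 for Bcl6, and for Ttn from -0.32 to 0.25, -0.11 to 0.11, -0.16 to 0.23 and -0.31 to 0.021 (exons 150, 275, 143 and 30). Of the alternative values of named windows and genes, 703 kept direction and call and 84 lost the call. Low windows rest on few tags, which limits their precision.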
